A study of Mus musculus with 6 samples.

Results

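The integrin and laminin subunits are the genes for the cell-surface matrix receptors and for the main adhesive proteins of basement membranes. They were taken from the deposited table by gene symbol, as every numbered Itga and Itgb gene, Itgav, Itgal, Itgae and every numbered Lama, Lamb and Lamc gene. This gave 34 of 23036 genes, 23 for integrin and 11 for laminin subunits. The leukocyte alpha subunits Itgam, Itgax and Itgad lie outside that rule and were read as a separate list. The study asked what liver HKDC1, a hexokinase-like protein, does in diet-induced steatohepatitis. It sequenced poly-A RNA from the liver of female mice kept for 20 weeks on western diet, starting at 8 weeks of age. LKO mice carried the hepatic knockout of Hkdc1 (HKDC1LKO), and flox mice carried the floxed gene without that knockout (HKDC1 fl/fl). All 6 libraries therefore share the diet and the sex. Strain, recombinase promoter and any pooling of animals: not given in the sources used here.

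By the genotype field of the labels there were 3 LKO and 3 flox libraries, and library names below follow it. Of the titles, 2 go against it: LKO 1 is titled as flox and flox 3 as LKO. Each comparison was therefore made in 3 ways: by the genotype field (3 against 3), on the 4 libraries whose title and field agree (LKO 2 and LKO 3 against flox 1 and flox 2), and by the titles (flox 3, LKO 2 and LKO 3 against LKO 1, flox 1 and flox 2). Hkdc1 itself had 10, 1 and 4 counts in LKO 1 to 3, against 49, 22 and 1 counts in flox 1 to 3, so the library labelled flox 3 was as low as the LKO libraries. Its log2 fold change missed the threshold in edgeR by the genotype field (-2.12, adjusted p = 0.571), in the agreeing libraries (-3.59, adjusted p = 0.110) and by the titles (-3.51, adjusted p = 0.108). Library totals were 16166515 to 17366295 counts, and 8 hepatocyte markers summed to 60771 to 90816 CPM (counts scaled by library total and TMM factor). LKO 2 stood apart: 10 adrenal cortex markers summed to 2702 CPM there, against 373 CPM in LKO 3 and 81.5 to 118 CPM in the other libraries, and its adipocyte markers summed to 256 CPM, against 57.2 to 108 CPM elsewhere. Values without LKO 2 or another library stand beside some results, but not beside each result that leaving out a library moved. In the agreeing libraries this leaves 1 library alone in its group, which was assumed to vary like the other group. No p value of such a fit is given.

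Integrins are pairs of an alpha and a beta subunit that span the plasma membrane, bind matrix or counter-receptors outside the cell and connect to actin inside it. Laminins are trimers of an alpha, a beta and a gamma chain that polymerise into the basement membrane, where integrins and dystroglycan hold them. In liver, hepatocytes express some of these genes, while stellate, endothelial, biliary and immune cells each express their own set. In fibrosis and ductular reaction, laminins are deposited along sinusoids and around ducts, and integrins that contain the alpha-v chain can activate latent TGF-beta.

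The subunits were compared with each other by FPKM, the count scaled by gene length and library total, which gives a level per length. Itgb1, the beta chain shared by most matrix-binding integrins, was highest with a mean of 47.7 FPKM over the 6 libraries, and Itgb5, a partner of Itgav, followed with 43.2 FPKM. Their ranges, 41.8 to 65.0 FPKM and 33.3 to 56.8 FPKM, overlapped. Next came Itgb2, the leukocyte beta chain, with 13.3 FPKM, and Itgal, its partner on lymphocytes, with 6.93 FPKM. Itga5, the fibronectin receptor chain, had 5.91 FPKM and Itga9, a receptor chain for tenascin and osteopontin, had 5.61 FPKM. The most abundant laminin was Lamc1, the common gamma chain, with 4.15 FPKM, ahead of the beta chain Lamb2 with 2.58 FPKM. Lama3, Itgb6 and Itga11 closed the order with 0.0790, 0.0820 and 0.123 FPKM. Itga5 varied least across the libraries, with a highest CPM 1.18 times its lowest, and among members with counts in every library Itgb6 varied most, 31.8 times.

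**Figure D1:**
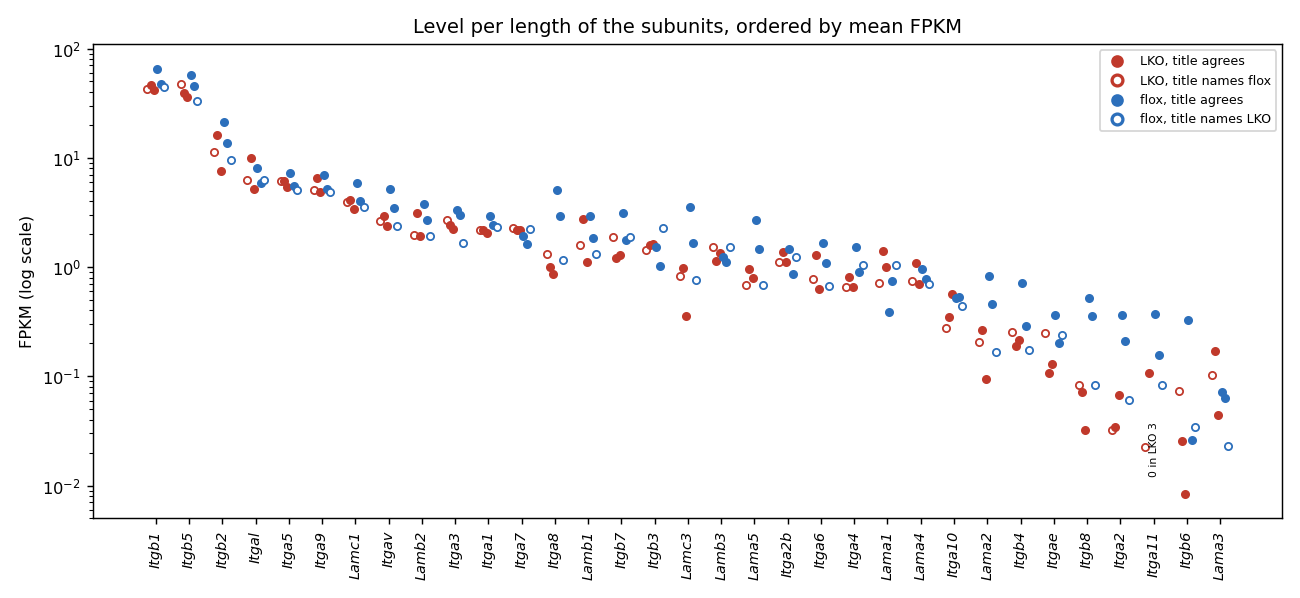
FPKM (log scale) of the subunits in each library, ordered by the mean over the 6 libraries; red points are LKO and blue points flox, and open points are the libraries whose title names the other genotype. Itgb1 and Itgb5 stand at 33.3 FPKM or more in every library, and in the lower part of the order flox 1 and flox 2 often lie above the rest; Itga11 had 0 counts in LKO 3.

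The number of subunits called different between LKO and flox livers depended on the grouping and on the method. In the agreeing libraries, Itga8 fell in LKO, the single subunit of 33 tested that passed edgeR's adjusted p of 0.05, where 0.492% of all 14625 genes tested were called lower and 0.13% higher. By the genotype field 0 of 31 subunits passed in edgeR, as did 0% of all genes. Unadjusted p values under 0.05 were held by 4 subunits, all lower in LKO, beside 4.76% of all genes lower and 4.1% higher. DESeq2 and limma-voom also called 0 subunits by that field, and 0.245% and 0% of all genes. By the titles 0 of 31 passed in edgeR, where 0.3% of all genes were called lower and 0.0559% higher, and 11 subunits had an unadjusted p under 0.05, 9 of them lower and 2 higher in LKO, beside 8.59% and 5.31% of all genes. The unadjusted counts in the agreeing libraries were also 9 lower and 2 higher, beside 9.88% and 6.74% of all genes. DESeq2 called 6 subunits in the agreeing libraries, all lower, among them Itga8, Itgb8, Lama2, Lama5 and Lamc3, where it called 3.07% of all genes lower. By the titles it called 5, of which 4 were lower (among them Itga8, Itgb5 and Itgb8), where 3.1% of all genes were, and Lama1 higher, where 1.31% were. Limma-voom called 0 subunits in both, and 0.301% of all genes in the agreeing libraries and 0.168% by the titles. Itga2, Itga11 and Itgb6 did not reach the filter on low counts in the 3-against-3 groupings, nor did Itgb6 in the agreeing libraries. In these bulk samples, fewer cells of a type and less RNA per cell cannot be told apart.

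In the agreeing libraries, both LKO libraries lay below both flox libraries for 17 of the 33 subunits tested and above them for 3, where 25.3% and 24% of all genes did so. By the genotype field the groups did not overlap for 4 subunits, all lower in LKO (Itga1, Itga4, Itgb1 and Itgb8), where 6.87% of all genes were lower in this way and 7.47% higher. Overlap was read in TMM-scaled CPM. In the deposited FPKM, Itgb1 and Itgb8 did overlap between the groups of that field. By the titles they did not overlap for 5 lower subunits (among them Itga3, Itga8, Itgb4 and Itgb5) and for 2 higher (Itgb3 and Lama1), where 10.4% and 8.61% of all genes did so. The median log2 fold change over the subunits tested was -0.29 in the agreeing libraries, -0.17 by the genotype field and -0.20 by the titles, beside 0.00, -0.01 and 0.00 over all genes tested. Of the 34 subunits, 21 were highest in flox 1 and 7 in LKO 2, while LKO 3 was lowest for 14. Among tested subunits flox 1 was highest for 18 of 31, against 26.0% of all genes tested, and LKO 2 for 7, against 14.6%. The share of all genes that were lowest in LKO 3 was not computed.

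**Figure D2:**
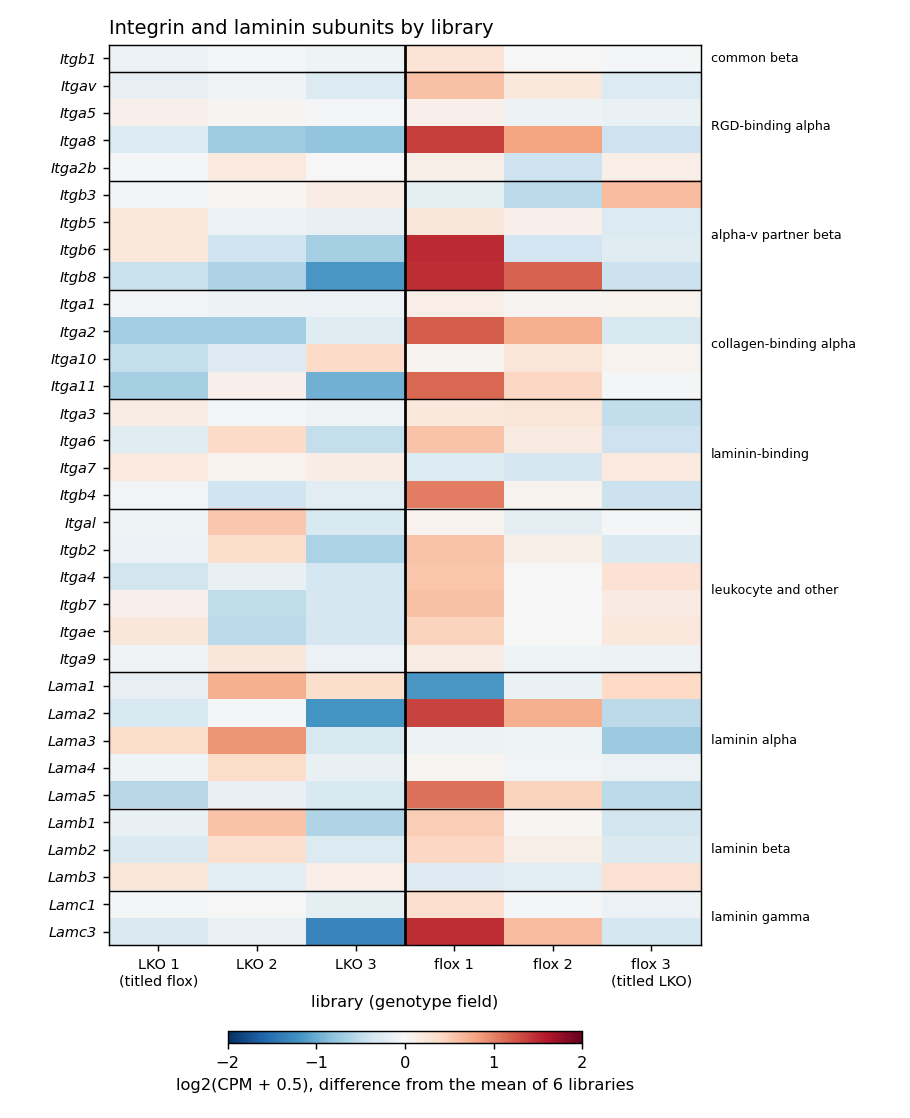
Level of the subunits in each library as the difference of log2(CPM + 0.5) from its mean over the 6 libraries, with subunits grouped by role, LKO libraries left of the black line and flox libraries right of it. Itga8, Itgb8, Itga2, Lama2, Lama5 and Lamc3 are red in flox 1 and flox 2, and pale to blue in flox 3, LKO 2 and LKO 3.

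**Figure D3:**
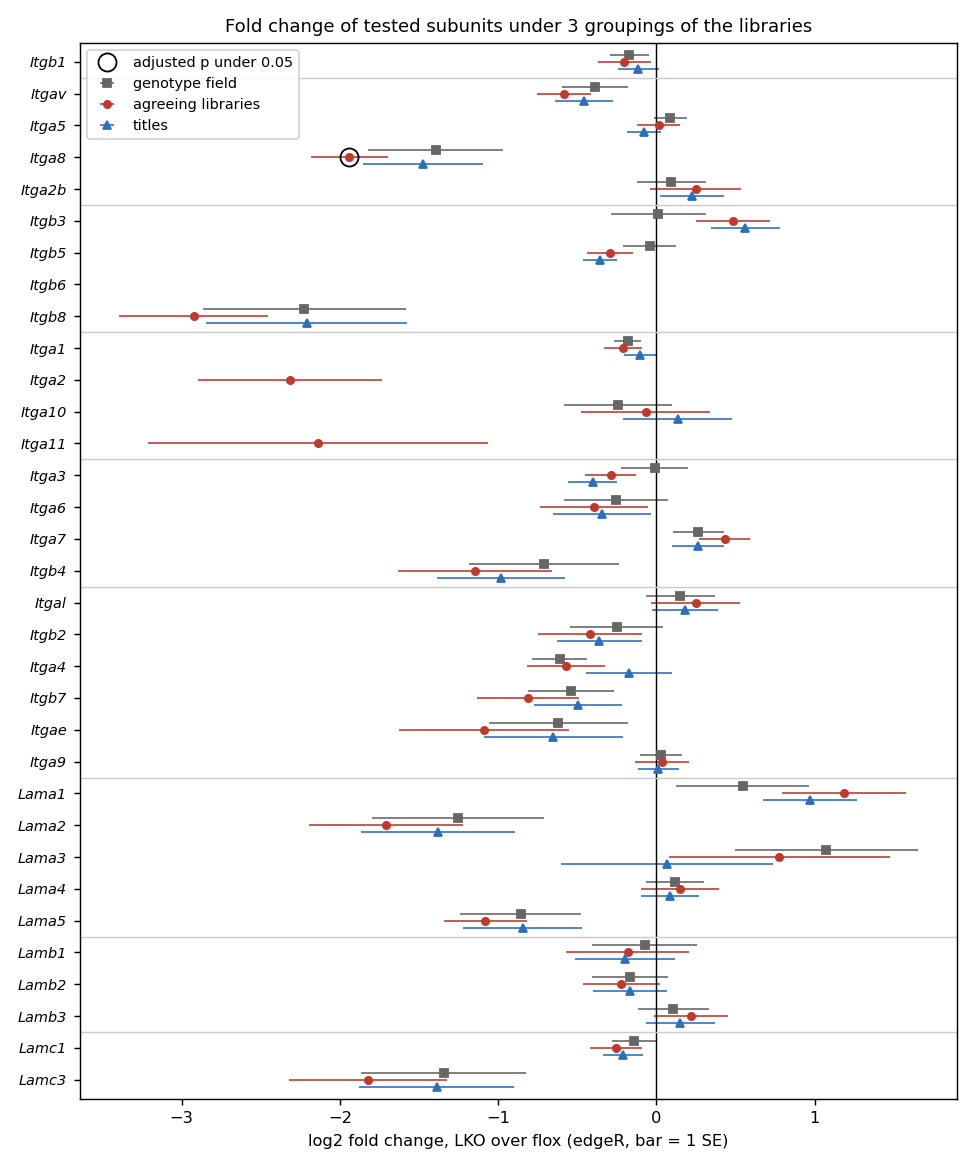
Log2 fold change of LKO over flox of the tested subunits, with bars of 1 SE from edgeR, under the genotype field (grey squares), the agreeing libraries (red circles) and the titles (blue triangles). The ring marks the single estimate with an adjusted p under 0.05, Itga8 at -1.94; Itgb6 was not tested, and Itga2 and Itga11 were tested in the agreeing libraries alone.

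Itga8, ENSMUSG00000026768, is the alpha chain that pairs with Itgb1 to bind RGD sites in nephronectin and fibronectin, and it is a marker of stellate and smooth muscle cells. The gene lies on the minus strand of chromosome 2 from 12111443 to 12306733 in the deposited coordinates, which the submitters' notes put on GRCm39. It shares 977 bases with the opposite-strand lncRNA E030013I19Rik, which had 38 counts against 1508 for Itga8. Itga8 had 9.95, 7.23 and 6.78 CPM in LKO 1 to 3, against 32.5, 21.4 and 9.02 CPM in flox 1 to 3. Flox 1 and flox 2 were high and the library labelled flox 3 was low, so the groups overlapped by the genotype field and separated in the agreeing libraries and by the titles. The mean in the agreeing libraries was 7.01 ± 0.321 CPM in LKO and 26.9 ± 7.83 CPM in flox (SD, n = 2 each), a log2 fold change of -1.94 (SE 0.24; adjusted p = 0.0432 in edgeR). The difference was smaller and missed the threshold by the genotype field (-1.39, SE 0.43, adjusted p = 0.554 in edgeR) and by the titles (-1.48, SE 0.38, adjusted p = 0.150 in edgeR). The call was lost without flox 1, where the value was -1.61. It was also lost with upper-quartile scaling (adjusted p = 0.0576 in edgeR), with library size alone (0.0515 in edgeR) and in limma-voom (0.0758). Without LKO 2 the edgeR value was -1.98, with LKO 3 alone in its group. The summed stellate and fibroblast markers were 644 and 638 CPM in LKO 2 and LKO 3, against 1404 and 1111 CPM in flox 1 and flox 2. Of these 12 markers, 9 were below 0 in log2 fold change in the agreeing libraries and 3 above 0. The part of these markers in the level of Itga8 was not tested.

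The 5 promoters shown here belong to Itga8, to Itgb8, Lama5 and Lama2, which DESeq2 also called lower in the agreeing libraries, and to Itgb1, the most abundant subunit. They run from 250 bases before to 50 bases after the start, are credited to RefSeq with the build GRCm38.p6 and are read 5′ to 3′ on the gene's own strand. The promoter table holds 21 of the 34 subunits. On that build Itga8 spans chr2:12301895-12302194 (minus), Itgb8 chr12:119238227-119238526 (minus), Lama5 chr2:180225810-180226109 (minus), Lama2 chr10:27616893-27617192 (minus) and Itgb1 chr8:128685404-128685703 (plus). Capitals mark matches to the motifs searched on both strands, which were AP-1 (TGANTCA), TEAD (GGAATG), the GC box (GGGCGG), the TATA box (TATAAA) and the E-box (CACGTG); no motif overlapped another in these 5 windows.
Itga8: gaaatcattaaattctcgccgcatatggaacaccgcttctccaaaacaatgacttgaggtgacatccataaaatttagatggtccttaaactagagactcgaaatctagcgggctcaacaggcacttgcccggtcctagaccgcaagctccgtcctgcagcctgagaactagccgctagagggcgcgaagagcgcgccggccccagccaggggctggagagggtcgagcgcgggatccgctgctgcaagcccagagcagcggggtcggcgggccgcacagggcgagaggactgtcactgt
Itgb8: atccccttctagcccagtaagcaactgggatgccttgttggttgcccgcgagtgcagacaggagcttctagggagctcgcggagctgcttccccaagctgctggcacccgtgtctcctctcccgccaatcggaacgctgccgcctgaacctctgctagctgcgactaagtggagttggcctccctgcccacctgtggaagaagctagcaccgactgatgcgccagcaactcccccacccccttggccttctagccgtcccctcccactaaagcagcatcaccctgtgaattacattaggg
Lama5: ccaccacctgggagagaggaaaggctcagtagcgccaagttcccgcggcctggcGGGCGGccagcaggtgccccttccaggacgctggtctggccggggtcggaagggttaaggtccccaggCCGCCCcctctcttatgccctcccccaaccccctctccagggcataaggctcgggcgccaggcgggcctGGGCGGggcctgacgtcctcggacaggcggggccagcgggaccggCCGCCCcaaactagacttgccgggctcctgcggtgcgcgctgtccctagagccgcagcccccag
Lama2: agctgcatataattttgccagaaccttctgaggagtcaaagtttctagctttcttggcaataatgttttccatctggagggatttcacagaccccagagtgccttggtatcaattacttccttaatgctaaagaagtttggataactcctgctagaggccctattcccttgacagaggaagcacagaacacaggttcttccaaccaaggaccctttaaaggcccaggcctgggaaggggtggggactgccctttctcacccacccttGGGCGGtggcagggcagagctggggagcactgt
Itgb1: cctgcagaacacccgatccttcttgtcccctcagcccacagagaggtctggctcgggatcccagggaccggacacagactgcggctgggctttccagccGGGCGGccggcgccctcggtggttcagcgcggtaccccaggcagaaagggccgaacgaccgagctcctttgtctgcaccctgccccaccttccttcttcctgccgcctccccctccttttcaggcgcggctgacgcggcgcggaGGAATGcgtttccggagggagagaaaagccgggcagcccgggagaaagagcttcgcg
The GC box, the letters bound by Sp1-type factors, began at bases -196, -128, -59 and -14 from the start of Lama5, at base 17 of Lama2 and at base -151 of Itgb1. Itgb1 also held the TEAD letters at base -7. None of the 5 motifs was present in the windows of Itga8 and Itgb8. Over all 32851 promoters of the table, 35.7% held the GC box, 14.7% the TEAD letters, 13.6% the TATA box, 7.81% AP-1 and 7.15% the E-box.

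**Figure D4:**
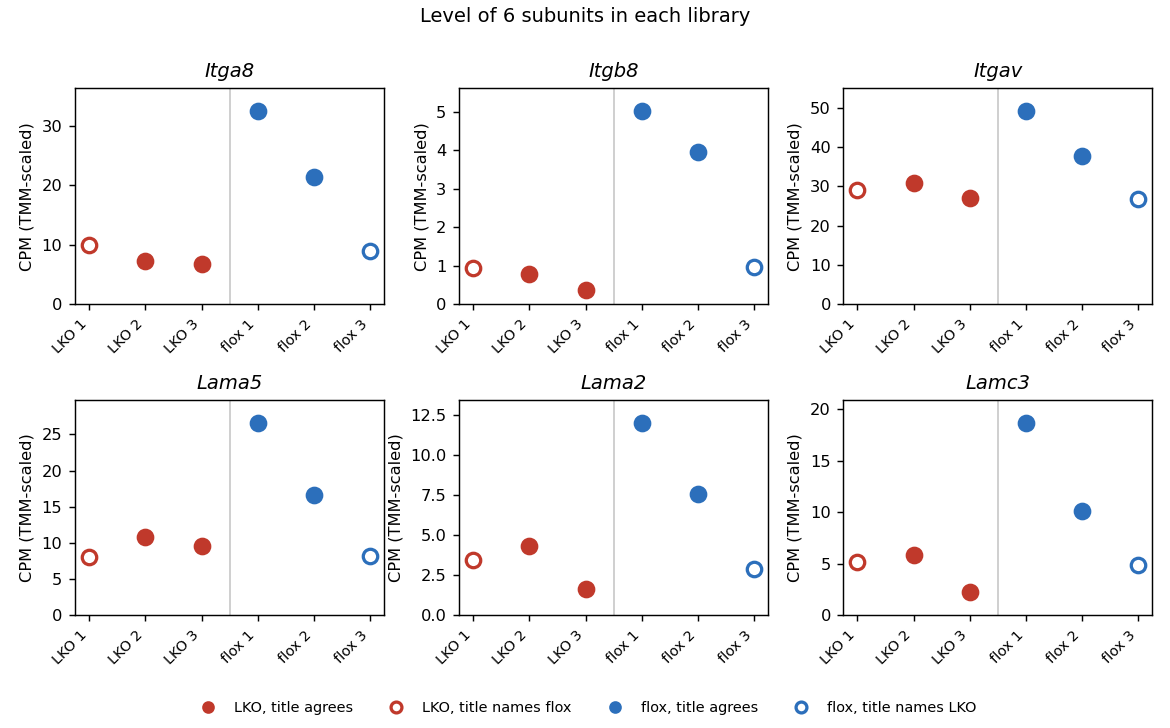
TMM-scaled CPM of Itga8, Itgb8, Itgav, Lama5, Lama2 and Lamc3 in each library, LKO in red and flox in blue, with open points for the libraries whose title names the other genotype. In all 6 panels flox 1 is the highest library and flox 2 the next, and the library labelled flox 3 lies among or near the LKO libraries.

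The other chains that bind RGD sites were led by Itgav, the alpha-v chain that pairs with several beta chains and binds vitronectin, fibronectin and the latent TGF-beta complex. Itgav had 29.0, 30.9 and 26.9 CPM in LKO 1 to 3, against 49.1, 37.6 and 26.7 CPM in flox 1 to 3. Again flox 1 and flox 2 were high, and its log2 fold change was -0.58 in the agreeing libraries (SE 0.17, adjusted p = 0.185 in edgeR). Itga5, which binds fibronectin with Itgb1, had 31.2, 30.02 and 28.4 CPM in LKO 1 to 3, against 31.0, 27.0 and 26.3 CPM in flox 1 to 3. Those groups overlapped in every grouping. Itgb1 had 178, 186 and 181 CPM in LKO 1 to 3, against 232, 192 and 190.2 CPM in flox 1 to 3. In TMM-scaled CPM all LKO libraries lay below all flox libraries for Itgb1, while flox 3 lay close to LKO 2. In the deposited FPKM the groups overlapped, with 46.2 FPKM in LKO 2 and 44.0 FPKM in flox 3. The log2 fold change of Itgb1 was -0.17 by the genotype field (SE 0.12, adjusted p = 0.649 in edgeR). Itga2b, the platelet fibrinogen receptor chain, ranged from 4.70 to 7.47 CPM over the 6 libraries, with overlapping groups.

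Of the beta chains that partner Itgav, 3 were tested. Itgb8, whose alpha-v pair activates latent TGF-beta and is made by epithelial and other cells, had 0.948, 0.784 and 0.380 CPM in LKO 1 to 3, against 5.02, 3.96 and 0.973 CPM in flox 1 to 3. In TMM-scaled CPM the library labelled flox 3 sat just above LKO 1, so all LKO libraries were below all flox libraries. In the deposited FPKM, LKO 1 (0.0833) lay just above flox 3 (0.0831), so the groups overlapped. Itgb8 had 16 counts in LKO 1 and 15 counts in flox 3. Its log2 fold change was -2.92 in the agreeing libraries (SE 0.47, edgeR adjusted p = 0.0644; DESeq2 adjusted p = 0.000339), -2.23 by the genotype field (edgeR adjusted p = 0.554) and -2.21 by the titles (edgeR adjusted p = 0.179). The edgeR value in the agreeing libraries was -3.53 without LKO 2, -2.504 without LKO 3 and -2.74 without flox 1. The summed cholangiocyte markers were 40.0 and 83.0 CPM in LKO 2 and LKO 3, against 514 and 376 CPM in flox 1 and flox 2. Spp1 (osteopontin) made up most of these sums, and all 11 markers tested there were below 0 in log2 fold change. The part of these markers in the level of Itgb8 was not tested. Itgb5, the abundant vitronectin-receptor chain, had 175, 139 and 137 CPM in LKO 1 to 3, against 177, 162 and 125 CPM in flox 1 to 3. The 2 libraries with conflicting labels lay on the side their titles name, and its log2 fold change was -0.36 by the titles (SE 0.11, adjusted p = 0.195 in edgeR; 0.0486 in DESeq2). Itgb3, found on platelets, endothelium and macrophages, ran the other way, with 8.71, 9.34 and 10.1 CPM in LKO 1 to 3, against 7.81, 6.06 and 14.1 CPM in flox 1 to 3. The library labelled flox 3 was the highest, and the log2 fold change was 0.56 by the titles (SE 0.22, adjusted p = 0.301 in edgeR) and 0.01 by the genotype field (adjusted p = 0.992). Itgb6, an epithelial chain, had 9, 3 and 1 counts in LKO 1 to 3, against 39, 3 and 4 counts in flox 1 to 3, so that flox 1 alone was high.

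Of the collagen-binding alpha chains, all partners of Itgb1, Itga1 was the most abundant per length and was even across the libraries, at 40.2 to 42.1 CPM in LKO and 45.5 to 47.9 CPM in flox. It did not overlap between the groups by the genotype field, with a log2 fold change of -0.18 (SE 0.09, adjusted p = 0.564 in edgeR). Itga1 shares 66649 bases with Gm49395 on the same strand, which had 185 counts against 4386 for Itga1. Itga2, an epithelial and platelet chain, had 4, 4 and 8 counts in LKO 1 to 3, against 44, 24 and 7 counts in flox 1 to 3. Its exact 95% Poisson intervals were 1.09 to 10.2 counts in LKO 1 and 15.4 to 35.7 counts in flox 2, and they cover counting error only. Itga11, a fibroblast chain, had 2, 9 and 0 counts in LKO 1 to 3, against 32, 13 and 7 counts in flox 1 to 3. Both were highest in flox 1 and flox 2. Their log2 fold changes in the agreeing libraries were -2.32 for Itga2 (adjusted p = 0.147 in edgeR) and -2.14 for Itga11 (adjusted p = 0.395 in edgeR). Without flox 1 Itga2 stood at -1.97 and Itga11 at -1.52. Without LKO 2, Itga2 stood at -1.87, while Itga11 stood at -7.41 with LKO 3, at 0 counts, alone in its group. Without LKO 3, Itga11 stood at -1.18. By the limit of 3 counts, a count of 0 in LKO 3 allows up to 0.190 CPM of Itga11 there, counting error only. Itga10, known from cartilage, ranged from 1.48 to 3.10 CPM with overlapping groups.

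Of the 4 laminin-binding chains, 0 passed the threshold in edgeR in any grouping; 1 was higher in the agreeing libraries at an unadjusted p under 0.05, beside 6.74% of all genes, and 2 were lower by the titles, beside 8.59% of all genes. DESeq2 and limma-voom called 0. Itga3, which pairs with Itgb1 in epithelial cells, had 15.8, 13.8 and 13.6 CPM in LKO 1 to 3, against 16.5, 17.0 and 9.99 CPM in flox 1 to 3. The library labelled flox 3 was the lowest of the 6, and the log2 fold change was -0.40 by the titles (SE 0.15, adjusted p = 0.301 in edgeR) and -0.01 by the genotype field (adjusted p = 0.989). Itga7, the muscle-type laminin receptor chain, was higher in LKO 2 and LKO 3 than in flox 1 and flox 2, with 19.2, 17.7 and 18.8 CPM in LKO 1 to 3, against 13.8, 13.3 and 19.3 CPM in flox 1 to 3. The agreeing libraries gave a log2 fold change of 0.43 (SE 0.16, adjusted p = 0.261 in edgeR). Itga7 shares 13 bases with the opposite-strand gene Mettl7b, which had 64542 counts against 1695 for Itga7, and their reads cannot be told apart there because the strand setting is not stated. Itgb4, the hemidesmosome chain that pairs with Itga6, had 1.84, 1.33 and 1.58 CPM in LKO 1 to 3, against 4.40, 2.04 and 1.30 CPM in flox 1 to 3. The 2 agreeing flox libraries were above the rest, with a log2 fold change of -1.15 in the agreeing libraries (SE 0.49, adjusted p = 0.314 in edgeR) that stood at -0.49 without flox 1 and -1.02 without LKO 2. Itga6, which binds laminin with Itgb1 or Itgb4, ranged from 6.15 to 13.3 CPM, with overlapping groups in each grouping.

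Among the leukocyte chains, Itgb2, which pairs with Itgal on lymphocytes and with Itgam or Itgax on myeloid cells, had 35.3, 48.8 and 24.6 CPM in LKO 1 to 3, against 57.0, 41.4 and 31.0 CPM in flox 1 to 3. Flox 1 was highest and LKO 3 lowest, and the log2 fold change in the agreeing libraries was -0.42 (SE 0.33, adjusted p = 0.580 in edgeR). Leaving out a library took this to values from -0.99 (without LKO 2) to -0.0066 (without LKO 3), with -0.17 without flox 1. Itgal had 41.9, 65.0 and 36.1 CPM in LKO 1 to 3, against 46.6, 38.5 and 43.5 CPM in flox 1 to 3. LKO 2 was the highest library for Itgal, and the log2 fold change of 0.25 in the agreeing libraries (adjusted p = 0.714 in edgeR) stood at -0.23 without it. Itga4, the receptor chain for Vcam1 on lymphocytes and monocytes, had 9.53, 11.2 and 9.69 CPM in LKO 1 to 3, against 18.6, 12.5 and 15.4 CPM in flox 1 to 3. Every LKO library was below every flox library, with a log2 fold change of -0.61 by the genotype field (SE 0.18, adjusted p = 0.554 in edgeR). Itgb7, the gut-homing partner of Itga4 and Itgae, had 5.33, 3.32 and 3.80 CPM in LKO 1 to 3, against 7.60, 4.89 and 5.58 CPM in flox 1 to 3. Its groups separated in the agreeing libraries, with a log2 fold change of -0.81 (SE 0.32, adjusted p = 0.292 in edgeR), and -0.46 without flox 1. Itga9, the receptor chain for tenascin and osteopontin, is placed here as a remaining chain and not as a leukocyte chain. It had 40.4, 50.03 and 39.3 CPM in LKO 1 to 3, against 47.2, 40.1 and 39.8 CPM in flox 1 to 3, with overlap in each grouping. Itgae, which holds intraepithelial lymphocytes to E-cadherin, stayed between 0.482 and 1.45 CPM.

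The laminin alpha chains differed among themselves. Lama5, the main adult basement membrane alpha chain, had 8.05, 10.8 and 9.63 CPM in LKO 1 to 3, against 26.6, 16.6 and 8.24 CPM in flox 1 to 3. Lama2, a chain of muscle and of fibroblast matrix, had 3.49, 4.34 and 1.65 CPM in LKO 1 to 3, against 12.05, 7.61 and 2.92 CPM in flox 1 to 3. In both the agreeing flox libraries were the highest and the library labelled flox 3 lay within the LKO range. The log2 fold changes in the agreeing libraries were -1.08 for Lama5 (SE 0.26, adjusted p = 0.136 in edgeR; 0.0233 in DESeq2) and -1.71 for Lama2 (SE 0.49, adjusted p = 0.176 in edgeR; 0.0257 in DESeq2). Without LKO 2 they were -1.16 for Lama5 and -2.56 for Lama2. Without LKO 3 they were -0.999 for Lama5 and -1.18 for Lama2. Without flox 1 they were -0.70 for Lama5 and -1.34 for Lama2. Each of these fits has 1 library alone in its group. Lama1, an alpha chain known from embryonic basement membrane, lay the other way, with 7.05, 13.3 and 10.2 CPM in LKO 1 to 3, against 3.26, 7.18 and 10.6 CPM in flox 1 to 3. LKO 2, the library with the highest adrenal cortex markers, was the highest and flox 1 the lowest. Those markers summed to 373 CPM in LKO 3, against 81.5 to 118 CPM in LKO 1 and the flox libraries. Leaving out LKO 2 therefore does not leave LKO free of them. The log2 fold change of Lama1 was 1.18 in the agreeing libraries (SE 0.39, adjusted p = 0.223 in edgeR). It was 0.99 there without LKO 2, 0.71 without flox 1 and 1.84 without flox 2. By the titles it was 0.97 (adjusted p = 0.199 in edgeR and 0.0489 in DESeq2). The part of the adrenal cortex markers in the level of Lama1 was not tested. Lama4, the endothelial alpha chain, ranged from 8.87 to 12.9 CPM and Lama3, an epithelial alpha chain, from 0.260 to 1.81 CPM, both with overlapping groups and both highest in LKO 2.

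Of the 3 laminin beta chains, 0 passed the threshold in edgeR, 0 had an unadjusted p under 0.05, and DESeq2 and limma-voom called 0, in each grouping. Lamb2, a chain of vessel and muscle basement membranes, had 12.3, 18.9 and 12.5 CPM in LKO 1 to 3, against 20.3, 16.4 and 12.3 CPM in flox 1 to 3, with overlap in each grouping. Lamb1, the broadly expressed chain, ranged from 11.7 to 27.0 CPM, highest in LKO 2. Lamb3, an epithelial chain, ranged from 7.14 to 10.8 CPM with overlapping groups. The 869 counts of Lamb3 are uncertain: they lie in a locus that shares 42442 bases with Hsd11b1, at 36413 counts, and 1057 bases with G0s2, at 8967 counts, both on the opposite strand. In all, 11 of the 34 subunits overlap another gene of the table, 9 of them one on the opposite strand.

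Of the gamma chains, Lamc3, a gamma chain less widely expressed than Lamc1, had 5.21, 5.85 and 2.28 CPM in LKO 1 to 3, against 18.7, 10.1 and 4.93 CPM in flox 1 to 3. The agreeing flox libraries were the highest, and the library labelled flox 3 lay among the LKO libraries. Its log2 fold change in the agreeing libraries was -1.82 (SE 0.50, adjusted p = 0.167 in edgeR and 0.0095 in DESeq2). It stood at -2.65 without LKO 2, -1.30 without LKO 3 and -1.31 without flox 1, each with 1 library alone in its group. Lamc1, the common gamma chain, had 33.2, 33.8 and 29.8 CPM in LKO 1 to 3, against 42.6, 33.3 and 31.0 CPM in flox 1 to 3. Flox 1 alone was high, and the groups overlapped in each grouping.

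The summed level of the integrins was 661, 677 and 595 CPM in LKO 1 to 3, against 824, 686 and 623 CPM in flox 1 to 3. That of the laminins was 108, 136 and 97.1 CPM in LKO 1 to 3, against 171, 130 and 105 CPM in flox 1 to 3. Without Itgb1 and Itgb5 the integrin sum was 308, 352 and 277 CPM in LKO 1 to 3. In flox 1 to 3 it was then 415, 332 and 307 CPM. The tests were run on the sums over all members, in which Itgb1 and Itgb5 weigh heavily. The exact two-sided permutation test gave p = 0.4 for the integrins and p = 0.5 for the laminins by the genotype field, and p = 0.2 and p = 0.4 by the titles, where 0.1 is the smallest p that 3 against 3 allows. In the agreeing libraries p was 0.333 for the integrins, the smallest 2 against 2 allows, and 0.667 for the laminins (exact permutation test).

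The partners of these receptors and chains were read as lists. Of 27 integrin adaptor and focal adhesion genes tested, Src, the tyrosine kinase downstream of integrins, fell in LKO by 2 groupings, with a log2 fold change of -1.62 in the agreeing libraries (SE 0.22, adjusted p = 0.0455 in edgeR) and -1.42 by the titles (SE 0.21, adjusted p = 0.0438 in edgeR). DESeq2 also called it in both, and limma-voom in neither (adjusted p = 0.0665 and 0.0854). Src had 8.41, 4.34 and 3.86 CPM in LKO 1 to 3, against 12.6, 12.6 and 4.35 CPM in flox 1 to 3. Both calls of Src were lost in edgeR without flox 1 (adjusted p = 0.123 by the titles) and without flox 2 (0.269 by the titles). The edgeR call by the titles was also lost without flox 3, LKO 2 or LKO 3 (0.107 to 0.213). Src was the single gene of the 27 that edgeR called in these groupings, where edgeR called 0.492% and 0.3% of all genes lower. DESeq2 called 2 of the 27 lower in the agreeing libraries and 1 by the titles, beside 3.07% and 3.1% of all genes. The median over the 27 genes was -0.16 in the agreeing libraries. Of 16 non-laminin basement membrane genes, Col15a1, a collagen bound to the outer face of the basement membrane, fell in the agreeing libraries (-1.10, SE 0.15, adjusted p = 0.0455 in edgeR), a call that DESeq2 made too and limma-voom did not (adjusted p = 0.0650). The edgeR call was lost without flox 1 (log2 fold change -1.11) and without flox 2 (-1.12), each with 1 flox library left. Col15a1 was the single edgeR call of the list there, where edgeR called 0.492% of all genes lower. DESeq2 called 4 of the list lower there and 6 by the titles, beside 3.07% and 3.1% of all genes. The list's median was -0.98 in the agreeing libraries. There 9 members had an unadjusted p under 0.05 and were lower, beside 9.88% of all genes, and 1 was higher, beside 6.74%.

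Of 19 integrin ligands outside the laminins, edgeR called 2 lower in the agreeing libraries, where it called 0.492% of all genes lower. Spp1, osteopontin, a ligand of Itgav, Itga8 and Itga9 that is also on the cholangiocyte marker list, had a log2 fold change of -3.27 (SE 0.36, adjusted p = 0.0291 in edgeR), and Vcam1, the ligand of Itga4, one of -1.33 (SE 0.15, adjusted p = 0.0295 in edgeR). DESeq2 and limma-voom called both, and without LKO 2 they stood at -2.85 and -1.19. Both edgeR calls were lost without flox 1 (-3.08 for Spp1 and -1.28 for Vcam1) and without flox 2 (-3.44 and -1.39). Over the list DESeq2 called 6 genes lower and 1 higher, where it called 3.07% of all genes lower and 284 of 14625 higher. The list's median was -0.17. Of 9 latent TGF-beta genes, 0 passed in edgeR in the agreeing libraries, 5 had an unadjusted p under 0.05, all lower, beside 9.88% of all genes. DESeq2 called 2 of them lower, beside 3.07% of all genes, and limma-voom called 0. The lowest p values belonged to Ltbp1, the latent TGF-beta binding protein, at -1.22 (adjusted p = 0.114 in edgeR), and Tgfb3, a TGF-beta ligand, at -1.29 (adjusted p = 0.142 in edgeR). Of 5 non-integrin laminin receptors, 0 passed in edgeR, 1 was lower at an unadjusted p under 0.05, beside 9.88% of all genes, and DESeq2 and limma-voom called 0. Bcam, the Lutheran laminin receptor, stood at -0.78 (adjusted p = 0.216 in edgeR) and Sdc4, a syndecan, at 0.50 (adjusted p = 0.337 in edgeR). Of the 3 leukocyte integrin chains outside the rule, 0 passed in edgeR, 1 was lower at an unadjusted p under 0.05, DESeq2 called 1 lower and limma-voom 0, beside the same shares of all genes. Itgax, the myeloid chain, stood at -1.89 (adjusted p = 0.111 in edgeR). Its value was -2.38 without LKO 2, -1.52 without LKO 3 and -1.35 without flox 1. Itgam stood at -0.60 (adjusted p = 0.628 in edgeR) and at 0.15 without flox 1. By the genotype field 0 genes of these 6 lists passed in edgeR, and at most 4 lower and 1 higher in a list had an unadjusted p under 0.05, beside 4.76% and 4.1% of all genes. By that field DESeq2 called 1 integrin ligand of the lists, lower in LKO, beside 0.245% of all genes in either direction. Limma-voom called 0 genes of the lists and 0% of all genes. By the titles, Src was the single gene of the lists that passed in edgeR.

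The marker lists of the liver cell types did not all go the same way. The 12 cholangiocyte markers summed to 183, 40.0 and 83.0 CPM in LKO 1 to 3, against 514, 376 and 89.8 CPM in flox 1 to 3. Spp1 made up most of these sums. All 11 tested in the agreeing libraries were below 0 in log2 fold change, with a median of -2.57. The 12 stellate and fibroblast markers summed to 732, 644 and 638 CPM in LKO 1 to 3, against 1404, 1111 and 753 CPM in flox 1 to 3, and 9 of 12 were below 0, with a median of -0.79. The 12 macrophage markers summed to 906, 992 and 684 CPM in LKO 1 to 3, against 1459, 1039 and 849 CPM in flox 1 to 3, and 7 of 12 were below 0. The cholangiocyte and stellate sums had flox 1 and flox 2 as the highest libraries and flox 3 near LKO, the order seen in Itga8 and Itgb8. The 11 endothelial markers summed to 561, 624 and 562 CPM in LKO 1 to 3, against 488, 565 and 615 CPM in flox 1 to 3, with overlapping groups in each grouping, and 9 of 11 were above 0 in the agreeing libraries, with a median of 0.23. All 8 hepatocyte markers were above 0 there, with a median of 0.45, and summed to 72535, 83436 and 88733 CPM in LKO 1 to 3, against 60771, 69301 and 90816 CPM in flox 1 to 3. All 6 mesothelial markers tested were below 0, with a median of -1.22. The 7 mesothelial markers listed summed to 256, 133 and 148 CPM in LKO 1 to 3, against 314, 260 and 131 CPM in flox 1 to 3. In the agreeing libraries all 7 neutrophil markers tested, 6 of 7 T and NK cell markers and 2 of 5 smooth muscle markers were below 0. The part of the cell types in the subunit differences was not tested.

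**Figure D5:**
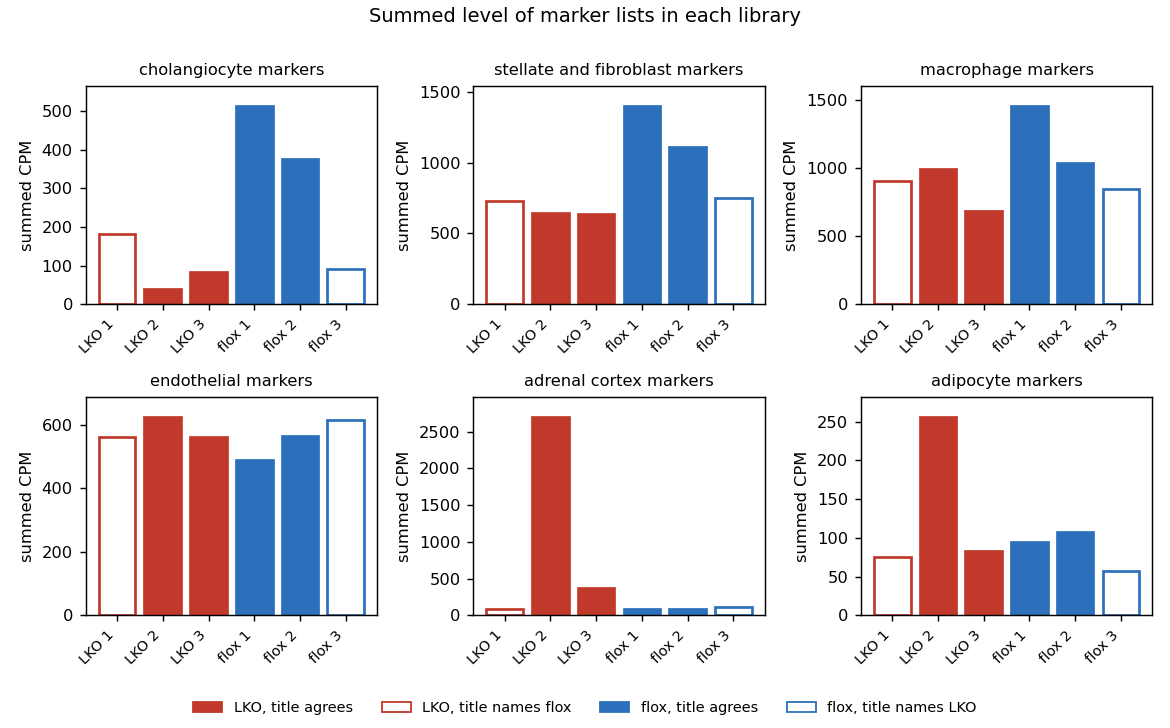
Summed CPM of 6 marker lists in each library, LKO in red and flox in blue, with open bars for the libraries whose title names the other genotype. The cholangiocyte, stellate and macrophage sums are highest in flox 1, endothelial sums lie between 488 and 624 CPM in all libraries, and the adrenal cortex sum of 2702 CPM stands out in LKO 2.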

How the data were processed

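Liver poly-A RNA was measured in 6 libraries. In 1 deposited table, 23036 genes had raw whole-number counts and FPKM. The submitters' processing notes list GRCm39 as the build and featureCounts, HISAT, StringTie, Cufflinks and fastp as tools; their versions, roles, annotation and strandedness: not given in the sources used here. Deposited FPKM equal the count per length and per library total, within 0.036% over 7260 genes. Library totals were 16166515 to 17366295 counts, where 3 counts are 0.155 to 0.195 CPM after TMM scaling. Per-sample columns left unused numbered 0.

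Groups follow the genotype field, the agreeing libraries or the titles. No label says that libraries are separate mice, so p-values cover only the spread among these samples, possibly technical. Any 2 libraries differed by a chi-square per gene of at least 14.2. Counts of all genes were tested with edgeR 4.0.16 (R 4.3.3; filterByExpr minimum 10 and total 15, TMM, quasi-likelihood test, Benjamini-Hochberg adjustment, threshold 0.05). The SE is the size of the log2 fold change divided by the square root of F. CPM are TMM-scaled over 6 libraries; the heat map adds 0.5 CPM. DESeq2 1.42.0 and limma-voom (limma 3.58.1) were alternatives, with other scalings, filters and leaving out each library. The edgeR steps were also run on simulated counts with planted changes. That simulation held neither conflicting labels nor other tissue, so it does not cover these problems. The members, lists and tests were chosen with earlier results of these data known. Values per library are given for subunits past the threshold or with an unadjusted p under 0.05 and a mean of at least 1 CPM in any grouping, and for the 10 most abundant per length, 22 in all, of which 1 is not reported here. From each list, members past the threshold or the 2 of lowest p were named. Hkdc1 was kept in each fit and left out of counts. Promoters come from RefSeq (GRCm38.p6); coordinates were not converted between builds.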

Additional observations from a re-analysis of the deposited data

How the results depend on the processing

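The 3 groupings share libraries, and none of the alternatives removes the conflict in the labels. Genes called were 35 with DESeq2 by the genotype field, against 0 with edgeR. In the agreeing libraries they were 57 with upper-quartile scaling, 1108 with no filter, 733 with DESeq2 and 44 with limma-voom, against 91, and by the titles 247 with no filter, 25 with a filter at a mean of 1 CPM, 631 with DESeq2 and 24 with limma-voom, against 51. Subunits called in the agreeing libraries were 0 with upper-quartile scaling, library size alone and limma-voom, 8 with no filter and 6 with DESeq2, against 1, and by the titles 1 with no filter and 5 with DESeq2, against 0. The cause was not tested.

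Leaving out each library gave 0 (without flox 1) to 759 (without LKO 2) genes called in the agreeing libraries and 0 (without flox 2) to 238 (without LKO 1) by the titles; by the genotype field edgeR called 0 each time. Subunits called ranged from 0 (without flox 1) to 8 (without LKO 2) in the agreeing libraries and from 0 to 3 by the titles (3 without LKO 1), and none passed by the genotype field. The median log2 fold change of the subunits ranged from -0.61 to -0.18 in the agreeing libraries, from -0.37 to 0.0049 by the genotype field and from -0.40 to -0.055 by the titles, each lowest without LKO 2 and highest without flox 1. Where one library is left in a group, it was assumed to vary like the other.

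Library size alone moved the median of all genes to -0.13 in the agreeing libraries, and with it Itga5 to -0.13 and Itga9 to -0.10. Under it Itga9 stood at -0.052 and Itgb3 at -0.044 by the genotype field and Itga9 at -0.090 by the titles. Limma-voom put Itga3 at 0.012 by the genotype field. Log2 fold changes that changed sign when a library was left out were, by the genotype field, Itga3 (-0.21 to 0.11), Itga9 (-0.084 to 0.12), Itgal (-0.13 to 0.32), Itgb2 (-0.52 to 0.00996), Itgb3 (-0.23 to 0.44), Itgb5 (-0.17 to 0.071), Lamb2 (-0.40 to 0.029) and Lamc1 (-0.23 to 0.013). Over the agreeing libraries they were Itga5 (-0.092 to 0.11), Itga9 (-0.14 to 0.20), Itgal (-0.23 to 0.61) and Lamb2 (-0.55 to 0.050). By the titles they were Itga4 (-0.38 to 0.14), Itga9 (-0.11 to 0.10), Itgal (-0.092 to 0.36), Itgb1 (-0.19 to 0.013) and Lamb2 (-0.40 to 0.031). Itgam, outside the rule, also changed sign (-1.20 to 0.15 in the agreeing libraries and -1.15 to 0.27 by the titles); these values of list genes were computed after seeing the data. No paired analysis was possible because replicate numbers come from accession order and the titles share no number between groups. At 3 counts a library cannot separate levels under about 0.155 to 0.195 CPM.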
